A study of Homo sapiens with 6 samples.

Results

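The chromatin around ETV1 on chromosome 7 and around MIPOL1, FOXA1 and TTC6 on chromosome 14 was examined in Hi-C maps of the prostate cancer cell line LNCaP. The genes of interest were ETV1, DGKB, MIPOL1, FOXA1 and TTC6, and all 40 kb bins of hg19 that start in 13 to 15.5 Mb of chromosome 7 or 36.5 to 39.5 Mb of chromosome 14 were taken. These are 138 bins, of which 91 had contact values, among 64935 bins with contact values in the genome. Hi-C joins the ends of cut DNA that lie close together in the nucleus, and each sequenced pair of ends counts as 1 contact between the bins it comes from. The study asked how loss of the architectural protein CTCF changes chromatin conformation. All cells were LNCaP, an established line, given either a pool of non-targeting siRNAs (control siRNA) or one against CTCF (CTCF siRNA) at 20 nM, split and transfected again after 72 h, and collected at 144 h. There were 2 libraries of control siRNA and 4 of CTCF siRNA, some of the latter numbered as further versions of a replicate, and the authors pooled them into 1 map per condition. No replicate spread can therefore be had, no p-value was computed between conditions, and the 95% intervals given cover counting error only.

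ETV1 encodes a transcription factor of the ETS family that is switched on in a subset of prostate cancers by rearrangement. LNCaP is known to carry ETV1 moved to the long arm of chromosome 14, in the neighbourhood of MIPOL1 and FOXA1. FOXA1 is a pioneer transcription factor that opens chromatin for the androgen receptor in prostate cells, MIPOL1 is named for a limb malformation, TTC6 encodes a tetratricopeptide repeat protein, and DGKB, the neighbour of ETV1, encodes a lipid kinase that phosphorylates diacylglycerol. Sequences that are joined in the genome contact each other in Hi-C far more often than sequences on separate chromosomes, and the contacts fall with the distance from the join. Topologically associated domains (TADs) are stretches of DNA that fold mostly on themselves, and CTCF occupies many of the borders between them.

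The siRNA pool named in the labels held 4 sequences, shown because the comparison rests on them. They are in lower case as listed, number 2 with 18 bases and the others with 19:
CTCF siRNA 1: gaugaagacugaaguaaug
CTCF siRNA 2: ggagaaagaagaagagua
CTCF siRNA 3: gaagaugccugccacuuac
CTCF siRNA 4: gaacagcccauaaacauag

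The chromosome 14 window was measured in full and the chromosome 7 window in part. All 75 bins of the chromosome 14 window had contact values in both maps, against 16 of the 63 bins of the chromosome 7 window. The other 47 bins shared their start positions with bins that had no value on any of the 24 chromosomes. ETV1 (chr7:13930854-14031050, minus strand) lies in 3 bins of that kind, inside a stretch of 78 bins without values (chr7:11200001-14320000), so the contacts of ETV1 itself were not analysed here. Of the 22 bins of DGKB (chr7:14184674-15014402, minus strand), which lies on the 5′ side of ETV1, 8 had values. The remaining 8 measured bins of the window began after DGKB, and 6 of them lay in AGMO, which encodes an enzyme that cleaves ether lipids. MIPOL1 (chr14:37667099-38048330, plus strand) spanned 11 bins, FOXA1 (chr14:38058757-38065264, minus strand) 1 bin and TTC6 (chr14:38064834-38510647, plus strand) 12 bins, and the bin of FOXA1 also held the end of MIPOL1 and the start of TTC6.

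Recovered read pairs numbered 26174669 in control siRNA and 87657891 in CTCF siRNA, 3.35 times as many, with 52.2% and 64.2% of them within a chromosome. A measured bin of the chromosome 7 window had a median of 264.5 read pairs within its chromosome in control siRNA and 552 in CTCF siRNA, and a bin of the chromosome 14 window had 394 and 1106. Counts between the chromosomes were far lower, and they set the precision of what follows.

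Measured bins beside ETV1 met chromosome 14 at a single bin. The 16 bins of chromosome 7 (chr7:14320001-15520000) made 14 contacts in control siRNA and 24 in CTCF siRNA with chr14:38000001-38040000, a bin that holds exons and introns of the 3′ part of MIPOL1 and is called the MIPOL1 3′ bin here. With the 74 other bins of the chromosome 14 window together they made 11 and 18 contacts, which brings the whole window to 25 and 42. The bin next to it toward the start of MIPOL1 had 0 contacts with them in both maps, and so had the FOXA1 bin on its other side. A count of 0 with an expected 0.102 and 0.280 contacts allows up to 36.2 and 13.2 times expected (upper ends of the 95% intervals), so a moderate excess at FOXA1 was not detectable at this depth.

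Expected contacts were those between chromosomes 7 and 14 outside the windows, shared out by how many contacts each bin made with the remaining chromosomes. On this scale the MIPOL1 3′ bin stood at 101 times expected in control siRNA (95% interval 55.3 to 169.8, 0.138 contacts expected) and at 80.1 times expected in CTCF siRNA (51.3 to 119, 0.300 expected). The window of 75 bins as a whole stood at 2.33 times expected (1.51 to 3.44) and 1.69 times (1.22 to 2.28). The other 74 bins stood at 1.04 times expected (0.518 to 1.86) and 0.733 times (0.434 to 1.16), intervals that include 1. For the MIPOL1 3′ bin the CTCF siRNA value over the control value was 0.791, and its interval of 0.393 to 1.66 leaves room for a fall or a rise. A bin was called where it had at least 10 contacts and at least 5 times expected. By that rule 1 of the 75 chromosome 14 bins was called in each map, the MIPOL1 3′ bin, against 0.046% of all 2176 usable bins of chromosome 14 (those with at least 10% of the chromosome's median cis count) in each map, which is the same bin, and 0.00167% of the 59801 usable bins outside chromosome 7. The call was lost in both maps with the values as deposited, at 26.3 and 21.6 times expected, and in CTCF siRNA once that map was reduced to as many contacts as the control, where the 10 contacts were not reached and the value was 94.9 times expected (43.4 to 180.1). The next highest of those 59801 bins had 4 contacts with the chromosome 7 window bins, in either map. No chromosome 7 window bin reached 10 contacts with the chromosome 14 window, the highest having 6 in control siRNA and 9 in CTCF siRNA. Of all usable chromosome 7 bins 0.0585% and 0.351% were called, which is 2 and 12 bins. All of them were among the 18 bins on the other side of ETV1 described below.

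**Figure D1:**
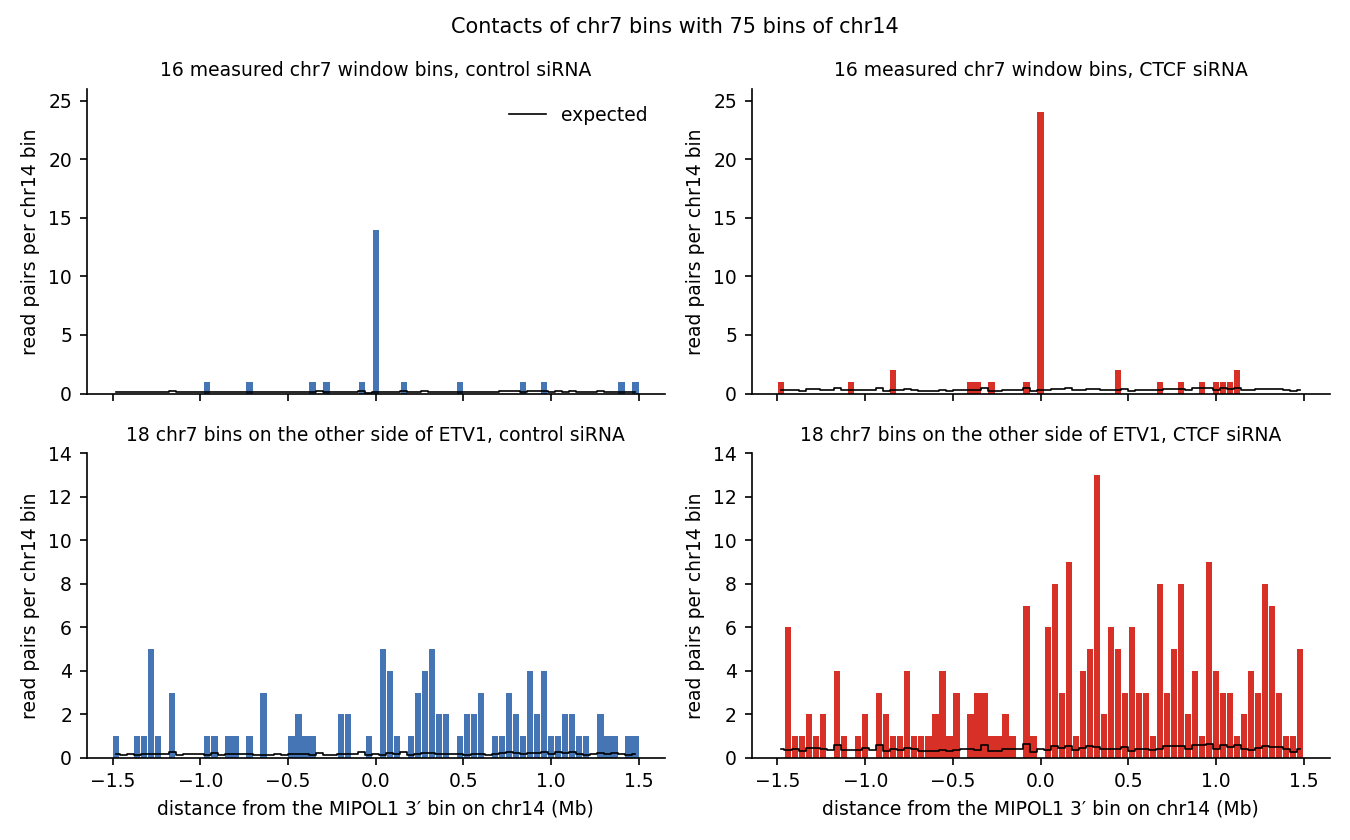
Read pairs (y axis) between chromosome 7 bins and each of the 75 bins of the chromosome 14 window, by distance in Mb from the MIPOL1 3′ bin (x axis), in control siRNA (blue) and CTCF siRNA (red), with the expected number as a black line. The 16 measured bins of the chromosome 7 window (top) have a single high bin, at 14 and 24 read pairs, while the 18 bins on the other side of ETV1 (bottom) are spread over both sides of it with 0 at the bin itself.

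Within chromosome 7 the contacts with the MIPOL1 3′ bin were highest in the part of DGKB nearest to ETV1. The bin at chr7:14320001-14360000 made 4 of them in control siRNA and 9 in CTCF siRNA, and the bin at chr7:14600001-14640000 made 3 and 4. Of the other DGKB bins the one at chr7:14800001-14840000 made 2 and 2, and none of the rest exceeded 1 in control siRNA or 2 in CTCF siRNA. The 8 DGKB bins made 11 and 21 contacts together, 155 times expected (77.5 to 278) and 139 times expected (85.9 to 212). The 8 measured bins after DGKB made 3 and 3, 44.5 times expected (9.17 to 129.9) and 20.2 times expected (4.17 to 59.1). DGKB bins thus stood 3.49 times above the later bins in control siRNA (0.922 to 19.5) and 6.86 times above them in CTCF siRNA (2.05 to 35.9), and only the second interval excludes 1.

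The excess at the MIPOL1 3′ bin went on along chromosome 7 beyond the window and was lower far from ETV1 than near it. The 29 bins from 15.52 to 16.68 Mb made 5 contacts with it in control siRNA and 13 in CTCF siRNA, 19.2 times expected (6.24 to 44.9) and 22.5 times expected (12.0 to 38.4). The 50 bins up to 18.68 Mb made 2 and 10, which is 4.05 times (0.490 to 14.6) and 9.06 times expected (4.35 to 16.7), and the 100 bins up to 22.68 Mb made 4 and 9, which is 4.41 times (1.20 to 11.3) and 4.44 times (2.03 to 8.42). The 250 bins up to 32.68 Mb stood at 1.39 times (0.286 to 4.06) and 2.60 times (1.39 to 4.45), an interval that excludes 1 in CTCF siRNA alone. From there to the end of the chromosome the value was 1.36 (0.945 to 1.91) and 1.24 (0.967 to 1.57), intervals that include 1. The window bins together stood above the bins of the next stretch by 5.26 times in control siRNA (1.79 to 18.7) and 3.57 times in CTCF siRNA (1.75 to 7.63). In CTCF siRNA the window bins after DGKB stood at 20.2 times expected, beside 22.5 in the next stretch, so the pooled difference there came with the DGKB bins, and the order of neighbouring stretches with overlapping intervals is not settled.

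**Figure D2:**
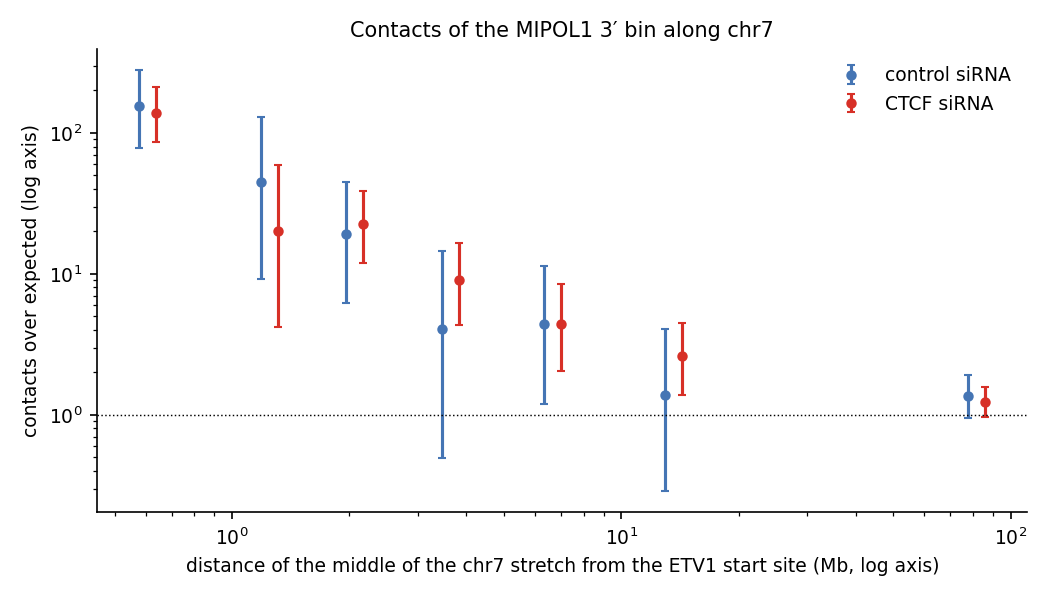
Contacts of the MIPOL1 3′ bin over expected (y axis, log) in 7 stretches of chromosome 7, by the distance of their middle from the ETV1 start site in Mb (x axis, log), in control siRNA (blue) and CTCF siRNA (red). Bars are 95% counting intervals, the dotted line is 1, and the values go from 155 and 139 in the DGKB bins to 1.36 and 1.24 in the last stretch, not falling at every step.

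In absolute terms these contacts were as frequent as contacts between bins of chromosome 14 that lie 0.88 to 1.92 Mb apart. The DGKB bins made 1.38 contacts per bin pair with the MIPOL1 3′ bin in control siRNA and 2.63 in CTCF siRNA. The mean number of contacts between bins of chromosome 14 dropped below those values at 0.88 Mb and 1.48 Mb. For all 16 bins the distances were 1.16 Mb and 1.92 Mb.

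On the other side of ETV1 the contacts were laid out differently. The nearest measured bins there, 18 bins in chr7:9400001-11200000, lie outside the window and were chosen after the missing values were seen. They made 0 contacts with the MIPOL1 3′ bin in both maps, where 0.173 and 0.387 were expected, which allows up to 21.3 and 9.54 times expected. With the chromosome 14 window as a whole they made 97 contacts in control siRNA and 229 in CTCF siRNA, against 13.4 and 32.1 expected. That is 7.23 times expected (5.87 to 8.82) and 7.14 times expected (6.24 to 8.13), with a ratio between the maps of 0.987 (0.775 to 1.27). Every one of the 18 bins took part, with 1 to 11 contacts in control siRNA and 4 to 24 in CTCF siRNA.

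These contacts spread over both sides of the MIPOL1 3′ bin and were denser on the side of FOXA1 and TTC6. The FOXA1 bin had 5 contacts in control siRNA and 6 in CTCF siRNA, 39.3 times expected (12.8 to 91.6) and 16.6 times expected (6.09 to 36.1). The 11 TTC6 bins after it had 23 and 59, 11.0 times expected (6.99 to 16.5) and 11.7 times expected (8.89 to 15.1). The 9 MIPOL1 bins before the MIPOL1 3′ bin had 6 and 19, 3.86 times expected (1.42 to 8.40) and 5.06 times expected (3.04 to 7.89). Over the whole window the right side exceeded the left by 1.90 times in control siRNA (1.22 to 3.03) and by 2.14 times in CTCF siRNA (1.60 to 2.90), with trans coverage of the left bins at 0.865 and 0.841 of that of the right bins before it entered the expected values.

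The excess was lower at the ends of chromosome 14 than near the window, without falling at every step. On the right it was 12.2 and 12.0 times expected over the nearest 5 bins, 13.4 and 11.7 times over the 10 after them, 7.18 and 8.24 times from 38.64 to 39.52 Mb, 3.69 and 3.23 times from 42.04 to 48.04 Mb, and 1.55 (1.37 to 1.75) and 1.34 (1.23 to 1.45) from 62.04 Mb to the end. On the left it was 5.46 and 5.10 times over the nearest 5 bins, 3.21 and 5.29 times over the next 10, 5.53 and 3.99 times from there to 36.52 Mb, with intervals that overlap, and 1.72 (1.24 to 2.33) and 1.58 (1.28 to 1.93) between 19.44 and 28 Mb. Across all of chromosome 14 the 18 bins stood at 2.16 and 2.02 times the level set by trans totals, and with the 20 other autosomes they stood between 0.682 and 1.01 in control siRNA and between 0.759 and 1.04 in CTCF siRNA. The 16 window bins, by contrast, stood at 0.932 and 0.982 with chromosome 14 as a whole, within the range of the other autosomes.

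**Figure D3:**
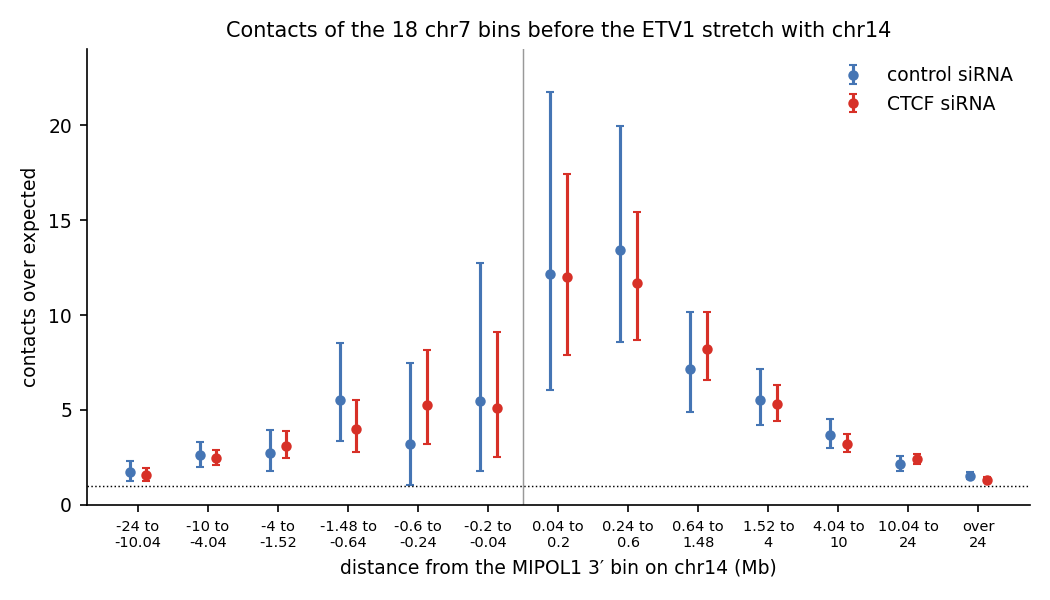
Contacts over expected (y axis) of the 18 measured chromosome 7 bins on the far side of ETV1 with stretches of chromosome 14, by distance in Mb from the MIPOL1 3′ bin (x axis, unequal stretches, the grey line marks the bin), in control siRNA (blue) and CTCF siRNA (red) with 95% counting intervals. Values are 12.2 and 12.0 in the nearest stretch on the right and 5.46 and 5.10 on the left, and are 1.55 and 1.34 at the far end, not falling at every step.

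The 2 sides of ETV1 were set against each other over the chromosome 14 window. Their bins were not at like distances from ETV1 (13930854 to 14031050). The far-side bins end at 11200000 and the window bins start at 14320001. Over all 75 bins the 18 bins on the far side stood 3.10 times above the window bins in control siRNA (1.98 to 5.03) and 4.23 times above them in CTCF siRNA (3.03 to 6.02). Without the MIPOL1 3′ bin, left out after its values were seen, the figures were 7.06 (3.77 to 14.6) and 9.86 (6.10 to 16.9). Trans coverage of the window bins was 1.02 and 0.979 times that of the remaining chromosome 7 bins. Other ETS genes of prostate cancer had no excess like that of the far-side bins with the chromosome 14 window as a whole. Sets of 16 bins around ERG, FLI1, ETV4 and ETV5 stood at 1.13 to 1.25 times expected in control siRNA and 0.877 to 1.26 in CTCF siRNA, and all of their intervals included 1. They lay below the intervals of the far-side bins but overlapped those of the 16 chromosome 7 window bins over the whole window. An excess at a single chromosome 14 bin was not looked for at these genes. Sets of 16 bins were also taken around genes joined to ETV1 in other prostate cancers, namely TMPRSS2, SLC45A3, ACSL3, KLK2 and CANT1. They made at most 2 contacts in control siRNA and 6 in CTCF siRNA with the chromosome 7 window bins. All of those intervals included 1 too. With 1.28 to 1.89 contacts expected for them in control siRNA, a moderate excess was not detectable.

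The authors' TAD lists put the MIPOL1 3′ bin on a border that both maps share. The chromosome 14 window was touched by 3 TADs in control siRNA and 2 in CTCF siRNA. In control siRNA a TAD of 1400 kb (chr14:36260001-37660000) held the starts of MBIP, NKX2-1, NKX2-8, PAX9 and SLC25A21, a TAD of 360 kb (chr14:37660001-38020000) held the start of MIPOL1, and a TAD of 1880 kb (chr14:38020001-39900000) held those of FOXA1, TTC6, SSTR1, CLEC14A and SEC23A. In CTCF siRNA the MIPOL1 TAD and its left neighbour lay inside a single TAD of 1880 kb (chr14:36140001-38020000), and FOXA1 and TTC6 lay in one of 1600 kb (chr14:38020001-39620000). Of the 2 control edges inside the window, the edge that ends the first TAD, in the bin where SLC25A21 and MIPOL1 start, had no counterpart within 40 kb after CTCF siRNA. The edge at 38020000, the middle of the MIPOL1 3′ bin, was at the same position in both lists. In the whole genome 48.6% of control edges had no counterpart and 37.5% of CTCF siRNA edges had none in the control, so losing 1 edge of 2 was near the background.

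At the ETV1 locus the lists differed as well. The chromosome 7 window was touched by 4 TADs in control siRNA and 2 in CTCF siRNA. ETV1 started in a TAD of 880 kb (chr7:13300001-14180000) in control siRNA and in one of 1680 kb (chr7:12500001-14180000) in CTCF siRNA. The edge at 14180000, just past the 3′ end of DGKB, was in both lists, and the edges at 13300000 and at 14700000, within DGKB, were in the control list alone, so 1 of 3 control edges was shared. That is read beside the 48.6% of control edges without a counterpart in the genome and the 3988 control and 3159 CTCF siRNA edges in all, and with 3 edges it does not stand apart from them. Bins at these edges had no contact values of their own, and only 5 bins of the chromosome 7 window gave an insulation value. Across the edge at 14700000 the measured bin pairs made 70 contacts in control siRNA and 166 in CTCF siRNA. That is 0.790 times (0.616 to 0.999) and 0.451 times (0.385 to 0.525) expected from distance alone. Bin coverage was not part of this expectation. Cis coverage of the window bins was 0.680 times that of the remaining chromosome 7 bins in control siRNA and 0.420 times in CTCF siRNA. Contacts with the 47 window bins without values are absent from these cis counts, and the part of this was not tested. Whether contacts across this edge changed apart from coverage is therefore not settled.

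Insulation was measured in the chromosome 14 window as the log2 of contacts over expected across a bin, divided by contacts over expected within its flanks of 400 kb. A lower value means fewer contacts across the bin relative to its flanks, so it moves with either term. At the lost edge between SLC25A21 and MIPOL1 the value was -1.64 ± 0.16 (counting SD from 200 Poisson redraws) in control siRNA, with 103 contacts across where distance gave 403, and -0.47 ± 0.06 in CTCF siRNA, with 581 across where distance gave 1830. The change was 1.16 ± 0.17, and 0.974% of all 61475 usable bins with a value rose as much or more. Contacts across went from 0.256 times expected (0.209 to 0.310) to 0.317 times (0.292 to 0.344) there, intervals that overlap, and contacts within the flanks from 0.795 to 0.440 times, so most of the change lay in the flanks. With flanks of 800 kb this change was 0.49. The edge is called lost from lists made on these same maps, so its rise is not independent of that choice. Edges outside the windows in the control list alone rose too, where they had values. Their changes were 0.986 and 1.162 on chromosome 14 and 1.285 on chromosome 7. At the MIPOL1 3′ bin the value went the other way, from -0.999 ± 0.118 (176 contacts across) to -1.70 ± 0.09 (302 across), a change of -0.70 ± 0.15 that 0.895% of bins matched or exceeded, and -0.31 with flanks of 200 kb. Here contacts across went from 0.437 times expected (0.375 to 0.507) to 0.165 times (0.147 to 0.185), and those within the flanks from 0.874 to 0.536 times. All of these values take bins in the order of hg19. The MIPOL1 3′ bin also made the contacts with chromosome 7 given above, and the part of a rearranged copy in its values was not tested. The FOXA1 bin beside it held the lowest value of the window in CTCF siRNA, -2.22 ± 0.11, down from -1.23 ± 0.13, and 0.101% of bins fell as far. Values as low as at the MIPOL1 3′ bin were found in 8.06% of bins in control siRNA and 0.304% in CTCF siRNA.

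Over all 75 bins the mean change was -0.032 ± 0.030 (counting SD) and the median -0.024, with 34 bins up and 41 down. In the genome the mean was 0.071, the median 0.020, and 52.4% of bins were up. In control siRNA the lowest value of the window, -1.80 ± 0.16, lay in the bin after the start of MIPOL1, and in CTCF siRNA that bin stood at -0.81 ± 0.08. The deepest point of the window thus lay at the start of MIPOL1 in control siRNA and at FOXA1 in CTCF siRNA.

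**Figure D4:**
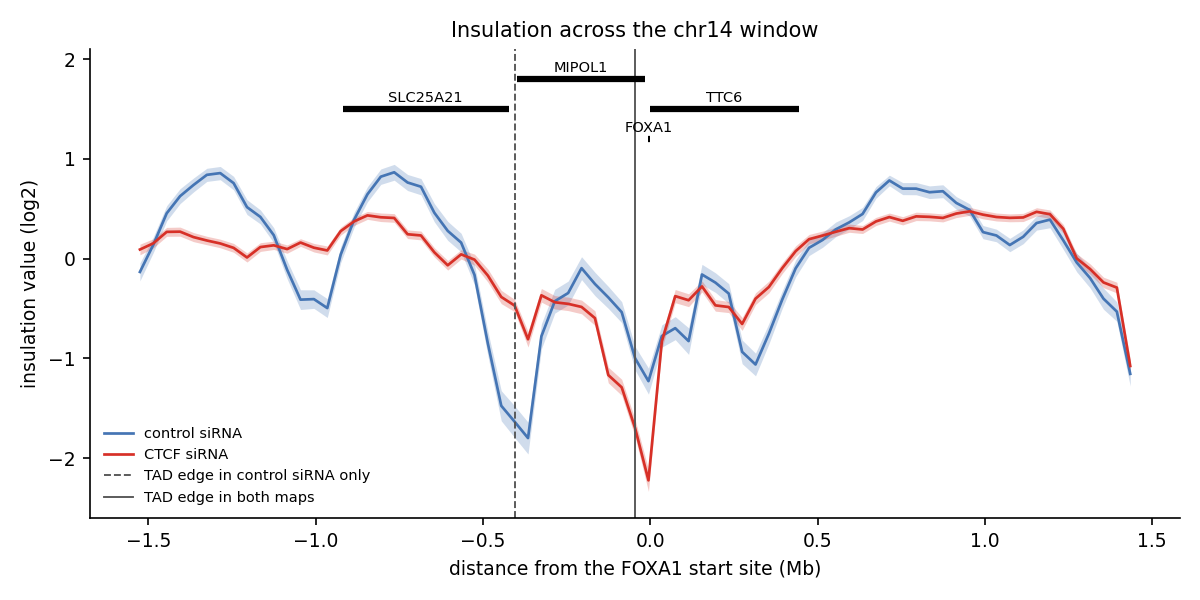
Insulation value (y axis, log2) of the 75 bins of the chromosome 14 window by distance in Mb from the FOXA1 start site (x axis), in control siRNA (blue) and CTCF siRNA (red), with bands of 1 counting SD, the genes as black bars, and TAD edges as vertical lines. The dip at the start of MIPOL1 goes from -1.64 to -0.47 at the dashed edge, and the dip at FOXA1 goes from -1.23 to -2.22 beside the solid edge that both lists hold.

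A core motif of CTCF (CCA, 2 bases of any kind, AGG, 1 base of any kind, GGC) was searched on both strands of hg19, since each edge lies at a single bin. Matches lay in 16 of the 75 bins of the chromosome 14 window (21.3%), against 27.1% of 6094 bins of chromosomes 7 and 14, so the window was no richer. The MIPOL1 3′ bin held 1 match, on the minus strand, and the FOXA1 bin held none. The bin of the lost edge held none, and the bin after it held 1 on the plus strand. Both are shown with 6 flanking bases on each side, which together span chr14:38034963-38034986 and chr14:37699976-37699999, as the strand of the match reads, 5′ to 3′, with the 12 bases of the motif in capitals:
bin after the start of MIPOL1: atttctCCAGTAGGTGGCgctgta
MIPOL1 3′ bin: ggaacaCCACAAGGGGGCaggtga
A match of letters is a description of these windows, and CTCF binding was not analysed here.

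Contacts of single bins were read beside the kept edge, 40 kb and further to each side. The FOXA1 bin made 48 contacts with the bin 40 kb to its right, in TTC6, in control siRNA and 203 in CTCF siRNA, against 11 and 32 with the MIPOL1 3′ bin 40 kb to its left. With distance and coverage as the expectation the latter pair stood at 0.925 times in control siRNA (0.462 to 1.655, an interval that includes 1). In CTCF siRNA it stood at 1.51 times (1.03 to 2.13). Relative to distance its contacts within TTC6 were highest 280 kb away, at 21 and 68 where distance alone gave 5.52 and 24.7. On the left they were highest on that scale 360 kb away, in the bin after the start of MIPOL1, across the kept edge. The counts there were 12 and 32, where distance gave 4.29 and 19.3. The MIPOL1 3′ bin was below distance with both neighbours, at 9 and 18 contacts on the left and 11 and 32 on the right. Distance gave 33.1 and 141.5 for either. At 80 kb it made 12 and 22 on the left and 1 and 6 on the right, in TTC6, where distance gave 14.9 and 63.4. Further left it was above distance at some bins in control siRNA and below it at others. At 120 kb on the left it made 24 and 16, where distance gave 10.6 and 46.4. With distance and coverage as the expectation, it stood above expected with the 9 MIPOL1 bins before it. The values were 2.54 times (1.98 to 3.21) in control siRNA and 4.09 times (3.35 to 4.94) in CTCF siRNA. In CTCF siRNA each of those 9 bins was below distance alone. The excess in that map was thus seen only with bin coverage in the expectation.

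**Figure D5:**
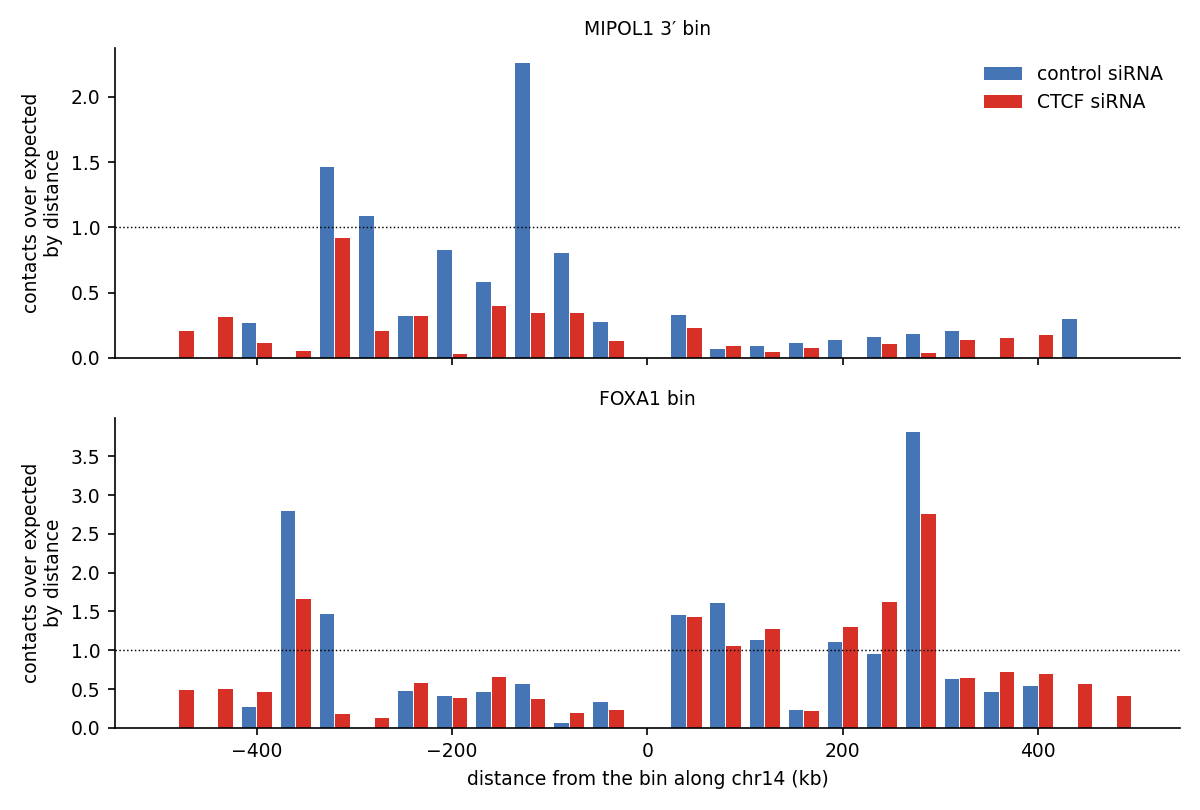
Contacts over those expected from distance alone (y axis) of the MIPOL1 3′ bin (top) and the FOXA1 bin (bottom) with bins up to 480 kb away along chromosome 14 (x axis, kb, negative toward MIPOL1), in control siRNA (blue) and CTCF siRNA (red), with the dotted line at 1. The FOXA1 bin is highest 280 kb to the right, at 21 and 68 contacts, and the MIPOL1 3′ bin stays far below 1 on the right in both maps.

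Between whole genes, contacts were compared with those expected from distance and the coverage of both bins. The 9 MIPOL1 bins before the MIPOL1 3′ bin made 169 contacts with the 12 SLC25A21 bins after PAX9 across the lost edge in control siRNA and 816 in CTCF siRNA. That is 0.690 times expected (0.590 to 0.803) and 1.93 times expected (1.80 to 2.07), a ratio of 2.80 (2.37 to 3.32). Across the kept edge the same MIPOL1 bins made 140 and 174 contacts with the 11 TTC6 bins after the FOXA1 bin, 0.681 times (0.573 to 0.803) and 0.564 times expected (0.483 to 0.654), a ratio of 0.828 (0.659 to 1.04). The FOXA1 bin made 128 and 540 contacts with those TTC6 bins, 1.85 times (1.55 to 2.20) and 2.80 times expected (2.57 to 3.05), a ratio of 1.51 (1.25 to 1.85). With the MIPOL1 bins it made 37 and 129, 1.24 times (0.870 to 1.70) and 1.70 times expected (1.42 to 2.02). Pairs that cross no edge rose on this scale too, MIPOL1 with itself by 1.70 times (1.51 to 1.91) and TTC6 with itself by 1.98 times (1.81 to 2.17). The FOXA1 bin with the SSTR1 and CLEC14A bins, at 4 and 34 contacts, rose by 3.072 times (1.096 to 11.92). MIPOL1 with the MIPOL1 3′ bin, which holds the kept edge, rose by 1.608 times (1.18 to 2.202). The rise of FOXA1 with TTC6 was no larger than these. With distance alone the ratio of MIPOL1 with the MIPOL1 3′ bin was not computed. In CTCF siRNA each of those 9 MIPOL1 bins was below distance with that bin. The 2.80 across the lost edge was not above every pair that crosses no edge. With distance alone as the expectation, the ratio between the maps was 1.07 for MIPOL1 and SLC25A21, 0.271 (0.216 to 0.341) for MIPOL1 and TTC6, and 0.967 for FOXA1 and TTC6, and the intervals of the first (0.907 to 1.27) and the last (0.796 to 1.18) include 1. The rises of MIPOL1 with SLC25A21 and of FOXA1 with TTC6 were therefore seen only with bin coverage in the expectation. For MIPOL1 with FOXA1 that ratio was 0.795, against 1.37 with coverage. Between the MIPOL1 pairs with SLC25A21 and with TTC6, the ratio was higher across the lost edge than across the kept one under both expectations. The edges were sorted into lost and kept by lists from these same maps, so this order is not independent of that sorting. Pairs with few contacts across the kept edge differed among themselves. With distance and coverage as the expectation, the ratio was 2.84 (1.23 to 7.31) for the MIPOL1 3′ bin with TTC6, at 8 and 24 contacts, and 7.47 (1.958 to 63.4) for the FOXA1 bin with SLC25A21, which crosses both edges, at 2 and 48. It was 1.64 (0.803 to 3.60) for the MIPOL1 3′ bin with the FOXA1 bin and 0.789 (0.244 to 3.32) for the FOXA1 bin with the bins from NKX2-1 to PAX9, at 4 and 13, and both of those intervals include 1. Ratios of these pairs were not computed with distance alone. On that scale the MIPOL1 3′ bin was below expected with each of the 11 TTC6 bins in both maps.

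Coverage itself moved with the treatment in these bins. The MIPOL1 3′ bin made 180 contacts with other bins of chromosome 14 in control siRNA and 335 in CTCF siRNA, a change of -1.11 (log2) relative to the genome that 4.75% of usable bins matched or exceeded. The FOXA1 bin made 268 and 1296, a change of 0.26 that 31.5% of bins matched or exceeded. Contacts with other chromosomes changed less, by -0.13 in the MIPOL1 3′ bin and 0.23 in the FOXA1 bin. The MIPOL1 3′ bin has a GC content of 35.7% and 12 sites of BglII, the enzyme that cut the DNA, and the FOXA1 bin has 45.7% and 10. The part of base content in these changes was not tested.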

How the data were processed

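Per the methods, the authors cut LNCaP DNA with BglII, mapped read pairs to hg19 with HiCUP and Bowtie 1.1.0 after FastQC 0.11.2, tagged duplicates with Picard 1.121, used SAMtools 1.2, pooled the libraries of a condition into 40 kb bins, and called TADs from a directionality index. The deposited contact values are read-pair counts multiplied by factors shared by a position on every chromosome between positions 9400001 and 48120000. Factors were estimated and counts recovered by division. Of the window values, 99.97% (control siRNA) and 100% (CTCF siRNA) came out whole within 0.0101 plus 0.05%. The deposited values, not whole counts as the design assumed, were kept as an alternative. A usable bin had at least 10% of its chromosome's median cis count in both maps. Intervals are exact Poisson or conditional binomial at 95%. PCR duplicates beyond those tagged are not independent molecules. Insulation needed 50% usable bin pairs. Genes came from GENCODE on GRCh37. Scripts (Python 3.11.15, numpy 2.4.6, scipy 1.17.1) were tested on simulated data. Members, gene lists and tests were chosen with earlier results of these data known. Named genes were the 5 of interest, fixed neighbours, other ETS and ETV1 partner genes, and genes at differing TAD edges. The planned stretch of called chromosome 7 bins was empty, so all 16 measured bins were used.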

Additional observations from a re-analysis of the deposited data

How the results depend on the processing

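No paired analysis was possible because each map pools its libraries, and leaving out a library could not be run for the same reason. Results planned on a stretch of called chromosome 7 bins, and the mean insulation of the chromosome 7 window, were not run, since no bin was called and too few had values. Of 134 alternatives, 98 kept the direction and stayed within the interval or 1.5 times the count. With the values as deposited, in which the read pairs of these bins carry factors, the 16 chromosome 7 bins stood at 1.50 and 1.08 times expected with the chromosome 14 window and at 26.3 and 21.6 with the MIPOL1 3′ bin (control siRNA, CTCF siRNA), and 0 chromosome 14 bins were called in either map. Thinned to the control's total, the CTCF siRNA map had 0 called bins, with the MIPOL1 3′ bin at 94.9 times expected but under 10 contacts. Without bin coverage the 18 bins on the far side of ETV1 stood at 9.45 and 8.96. Counted as contacts above expected per chromosome 14 cis contact, the ratio for the chromosome 14 window was 0.422 in place of 0.725. Flanks of 200 kb gave a mean insulation change of 0.054, and -0.31 at the edge in both lists, and flanks of 800 kb gave -0.092, and 0.49 at the edge in the control list alone. With distance alone, contacts over expected in control and CTCF siRNA were 0.342 and 0.366 for MIPOL1 with SLC25A21 (ratio 1.07), 0.398 and 0.108 for MIPOL1 with TTC6 (ratio 0.271), 1.25 and 1.21 for FOXA1 with TTC6 (ratio 0.967) and 0.560 and 0.445 for MIPOL1 with FOXA1 (ratio 0.795), so the CTCF siRNA values of MIPOL1 with SLC25A21 and with FOXA1, the control value and ratio of MIPOL1 with FOXA1, and the ratio of FOXA1 with TTC6 crossed 1. As deposited, the CTCF siRNA values were 1.41, 0.441, 2.05 and 1.24 in that order, with ratios of 1.90, 0.630 and 1.11 for the first 3, and decay over all autosomes gave 2.07 for the first. Coverage of the chromosome 7 window bins against the rest of chromosome 7 was 0.649 over all contacts in CTCF siRNA, 0.420 over cis contacts and 0.979 over trans contacts. The cause was not tested in any of these.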
